A study of Penicillium oxalicum with 12 samples.

Results

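Expression was compared between a pair of engineered strains of the filamentous fungus Penicillium oxalicum, which secretes enzymes that break down plant cell walls. The strain gXlnRC expresses XlnR with the substitution A871V, and the strain gAraRC expresses AraR with the substitution A731V. Each strain gave 3 mRNA libraries, described in the series as biological triplicates. The comparison covers the 8948 genes, of 9979 in the deposited table, with 3 or more of these 6 libraries at 1 FPKM or higher. FPKM is the number of sequenced fragments scaled to gene length and library total. The parent WT (strain 114-2) and the strain gCXC, which expresses a chimeric transcription factor named CXC, gave 3 libraries each and serve here as reference levels. All strains were grown for 24 h on 2% glucose and then kept for 4 h without a carbon source at 30 °C, so no group had received xylan, xylose or arabinose as a supplied carbon source. The promoters that drive the variants, the number of clones behind each strain and whether the native XlnR and AraR genes were still in place are not stated in the labels.

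XlnR and AraR are zinc cluster transcription factors of filamentous fungi. In Aspergillus niger, XlnR activates genes for xylan-degrading enzymes and for the first steps of D-xylose use, and AraR activates genes for the release and catabolism of L-arabinose. Both pathways meet in the pentose catabolic pathway, on which both factors act in that species. The comparison addresses how a variant of each factor distributes expression over the genes of one fungus under the same starvation.

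Genes carry only PDE locus tags in the deposited table, with no gene name beside them, and 0 of these tags were found in the RefSeq gene table used for names. Enzyme families, transporters and the XlnR and AraR genes themselves were therefore not analysed here, and the strain labels were not checked against the variants' own expression. The genes with the most extreme differences are given by their tags, without a function. No sequence is shown, because none could be tied to a tag.

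The 6 libraries held between 14549534 and 20092360 reads counted in genes. Spearman correlations across genes were 0.995 to 0.997 between gXlnRC libraries, 0.992 to 0.996 between gAraRC libraries and 0.912 to 0.921 between the strains. These describe genes within libraries, and genes are not independent replicates. Of the 8948 genes, 8459 had an FPKM of at least 1 in all 6 libraries. A further 79 reached it in every gXlnRC library and in 0 gAraRC libraries, and 56 the reverse, so these 135 entered through the strain in which they were high. Of the 79, 75 were called higher in gXlnRC, beside 49.8% of all genes tested, and of the 56, 54 were called higher in gAraRC, beside 23.7%. Their way of entry favoured these calls, which are part of the counts given below. Of the genes called at least 2-fold different, 27 in each direction were of this kind. Of the 1031 genes left out, 132 stood at 0 in all 6 libraries and 0 reached an FPKM of 10 in any of them. The third highest of the 6 values was 1.0001 FPKM for the gene just inside the limit and 0.9981 FPKM for the gene just outside.

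The strains differed at most genes, and gXlnRC was higher at more of them than gAraRC. In a limma fit to log2(FPKM + 1) with Benjamini-Hochberg adjustment, 6581 genes (73.5%) passed an adjusted p of 0.05, of which 4456 (49.8%) were higher in gXlnRC and 2125 (23.7%) higher in gAraRC. Of these, 1045 genes (11.7%) were at least 2-fold higher in gXlnRC and 560 (6.26%) at least 2-fold higher in gAraRC. The libraries of the strains did not overlap at 6777 genes (75.7%). The median standard error of a log2 difference was 0.09.

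The direction of this majority depended on how the libraries were scaled. The median log2 difference of all genes tested was 0.21 as deposited, and the summed FPKM was lower in each gAraRC library than in each gXlnRC library (1008582 to 1014611 against 1048260 to 1062791). With median-of-ratios scaling, which brings that median to -0.01, 3193 genes were higher in gXlnRC and 3212 higher in gAraRC, and the counts at 2-fold turned to 680 and 808. The median difference as deposited also ran with gene length, which was inferred from the FPKM values. It went from 0.03 in the quintile of shortest genes (up to 579 nt) to 0.38 in that of the longest (1992 nt and over). With median-of-ratios scaling it went from -0.19 to 0.16. At 2-fold, 105 genes were then higher in gXlnRC and 257 in gAraRC in the shortest quintile, and 112 and 70 in the longest. The median length was 1197 nt for the 1045 genes and 925 nt for the 560 genes. The part of length in these counts was not tested.

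**Figure D1:**
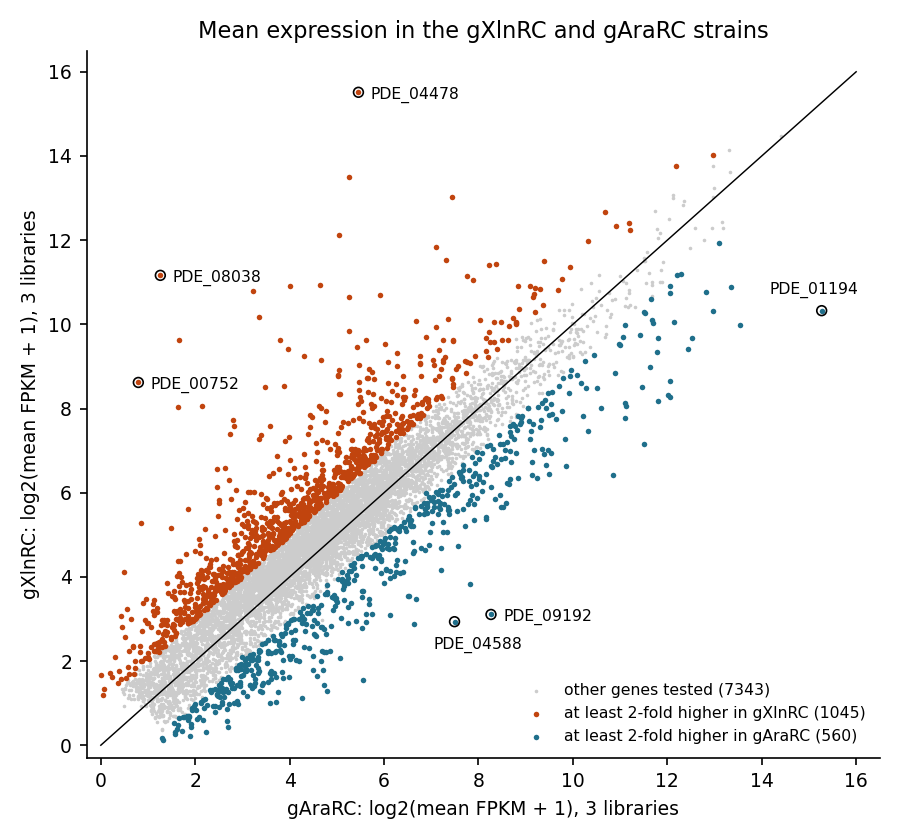
Each point is 1 of the 8948 genes, with log2(mean FPKM + 1) over 3 gAraRC libraries on the x axis and over 3 gXlnRC libraries on the y axis. Orange and blue points are the 1045 and 560 genes at least 2-fold higher in gXlnRC and gAraRC, rings mark the 6 genes named in the text, and the line marks equal expression. The orange points reach farther from the line than the blue ones.

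Differences of at least 8-fold leaned towards gXlnRC under both scalings. As deposited, 73 genes (0.816%) were at least 8-fold higher in gXlnRC and 23 (0.257%) at least 8-fold higher in gAraRC, and the numbers were 58 and 39 with median-of-ratios scaling. At 4-fold or more there were 210 (2.35%) and 122 (1.36%) as deposited, and 159 and 170 with median-of-ratios scaling. Between 4-fold and 8-fold the numbers were 137 and 99 as deposited and 101 and 131 with median-of-ratios scaling. Thus the lean at 2-fold and 4-fold turned with median-of-ratios scaling and that at 8-fold did not. With TPM scaling it stayed towards gXlnRC, at 924 and 598 genes at 2-fold and 188 and 130 at 4-fold. Quantile normalization gave 700 and 794 at 2-fold and 167 and 166 at 4-fold. The 23 genes became 38 with a pseudocount of 0.1 in place of 1 and 15 with a pseudocount of 5, beside 96 and 56 in place of the 73.

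**Figure D2:**
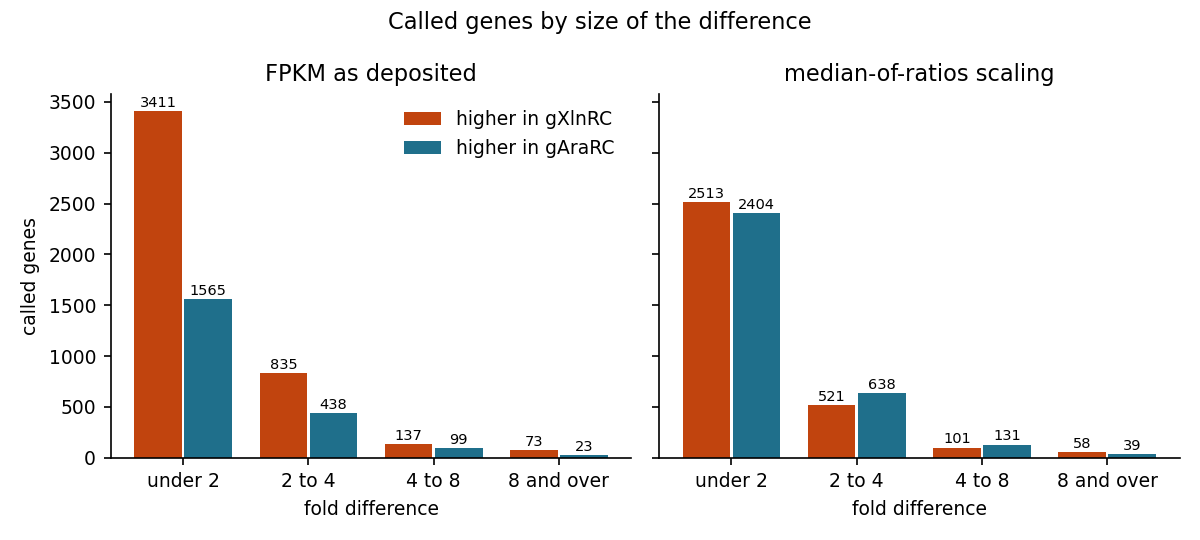
Bars give the number of called genes by size of the fold difference, for FPKM as deposited (left) and after median-of-ratios scaling (right). Under 2-fold the bars stand at 3411 and 1565 genes as deposited and at 2513 and 2404 after scaling, and at 8-fold and over at 73 and 23 against 58 and 39.

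PDE_04478 had the largest log2 difference on the log2(FPKM + 1) scale. Its FPKM in the gXlnRC libraries was 45592, 46147 and 48538, and in the gAraRC libraries 41.3, 42.8 and 44.7. Every gXlnRC library stood far above every gAraRC library, and the ratio of the means was 1089. The gene ranked first by FPKM in gXlnRC, with 2.97% ± 0.0994 of all gene reads (SD, n = 3), and 2880th in gAraRC. Its log2 difference between gXlnRC and gAraRC was 10.06 ± 0.05 (SE, limma, Benjamini-Hochberg adjusted p = 1.25e-18). WT stood at 67.9 ± 2.08 FPKM and gCXC at 74.3 ± 1.18 (SD, n = 3 libraries each), much closer to gAraRC than to gXlnRC. All 3 gAraRC libraries still lay below all 3 WT libraries, by a log2 difference of -0.65 ± 0.05 (SE), which was -0.30 with median-of-ratios scaling. A rule used below, on opposite sides of WT, also chose this gene and asked for this order. The difference from WT is therefore given without a test.

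PDE_08038 followed on that scale. It had 2233, 2238 and 2407 FPKM in the gXlnRC libraries and 1.15, 1.96 and 1.08 FPKM in the gAraRC libraries, from 21 to 35 reads per gAraRC library. The groups were far apart. The ratio of the means was 1643, above that of PDE_04478, but it rests on these few reads. The log2 difference was 9.92 ± 0.12 (limma, adjusted p = 9.16e-15) and ran from 8.49 to 10.7 under the alternatives tried. Its order with PDE_04478 turned with the setting: with a pseudocount of 0.1 the log2 differences were 10.63 for PDE_08038 and 10.09 for PDE_04478, and PDE_08038 also led with voom on the recovered reads, with quantile normalization and without gAraRC replicate 2. WT stood at 1.86 ± 0.0812 and gCXC at 2.19 ± 0.302 FPKM (SD, n = 3). The gAraRC libraries overlapped those of WT, with a log2 difference of -0.27 ± 0.12 that did not pass the test (adjusted p = 0.0526, limma).

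In the other direction, PDE_09192 had the largest difference on the log2(FPKM + 1) scale. It had 334.6, 288 and 297 FPKM in the gAraRC libraries and 6.78, 9.28 and 6.77 FPKM in the gXlnRC libraries. The mean was 40.3 times higher in gAraRC, and the log2 difference, gXlnRC minus gAraRC, was -5.17 ± 0.16 (limma, adjusted p = 7.00e-11). WT was lowest, at 2.72 ± 0.791 FPKM (SD, n = 3), and gCXC stood at 6.90 ± 1.03. Both variants thus lay above WT at this gene, gXlnRC by a log2 difference of 1.22 ± 0.16 (adjusted p = 4.28e-05) and gAraRC by 6.39 ± 0.16 (adjusted p = 2.44e-11). Both differences use the same WT libraries.

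PDE_01194 had 28732, 43337 and 46439 FPKM in the gAraRC libraries and 1266, 1477 and 1101 FPKM in the gXlnRC libraries. The lowest of the gAraRC values belonged to replicate 1, and it was still far above each gXlnRC library. The log2 difference was -4.92 ± 0.16 (limma, adjusted p = 1.35e-10), and -5.14 without that library, against -5.10 for PDE_09192. With a pseudocount of 5 it was -4.92, against -4.63 for PDE_09192, so the order of these genes also depended on the setting. The gene ranked first by FPKM in gAraRC, with 2.70% ± 0.647 of the reads, and 105th in gXlnRC, with 0.0876% ± 0.0129 (SD, n = 3). WT lay between the strains at 16508 ± 863 FPKM, and gCXC was also below WT, at 3452 ± 270 FPKM.

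**Figure D3:**
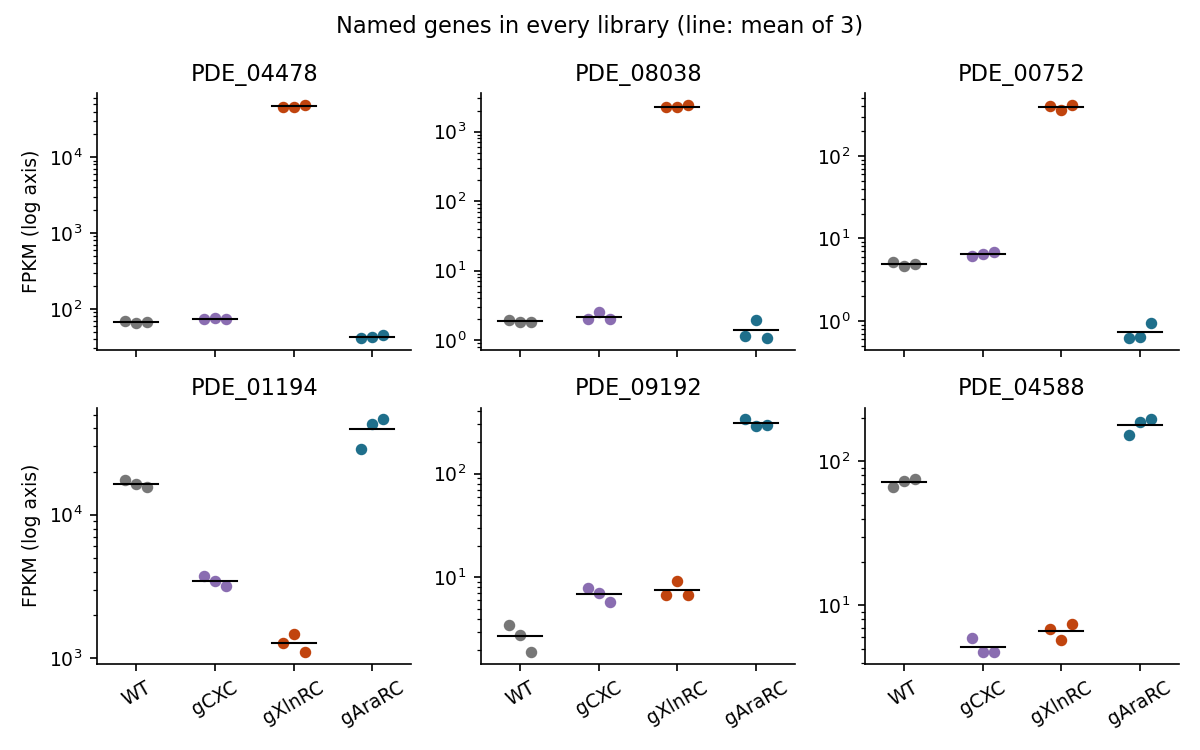
FPKM on a log axis for the 6 named genes in each of the 12 libraries, with 1 point per library and a line at the mean of 3. In the top row gXlnRC stands far above the other groups, which lie close together for PDE_04478 and PDE_08038. In the bottom row gAraRC is highest, at 306.6 FPKM for PDE_09192 against 2.72 FPKM in WT.

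PDE_01194 was one of the genes at which the strains lay on opposite sides of WT in every library. The others chosen by the same rule of size were PDE_04478, described above, PDE_00752 and PDE_04588. PDE_00752 had 403, 361 and 413 FPKM in the gXlnRC libraries, 5.23, 4.58 and 4.94 FPKM in WT and 0.620, 0.631 and 0.953 FPKM in the gAraRC libraries. The gAraRC values come from 10 to 18 reads per library, and as all 3 lie below 1 FPKM, the gene entered the comparison through gXlnRC alone. The rule asked for 3 groups that do not overlap, so the differences from WT are given without a test. The log2 difference from WT was 6.05 ± 0.09 in gXlnRC and -1.77 ± 0.09 in gAraRC (SE). gXlnRC minus gAraRC was 7.83 ± 0.09 and ran from 6.11 to 9.01 under the alternatives, given without a test because of the way the gene entered.

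PDE_04588 showed the reverse order. It had 152, 188 and 197 FPKM in the gAraRC libraries, 66.4, 72.9 and 75.3 FPKM in WT and 6.87, 5.70 and 7.37 FPKM in the gXlnRC libraries. Here too the rule asked for 3 groups that do not overlap, so the differences from WT are given without a test. The log2 difference from WT was 1.30 ± 0.11 in gAraRC and -3.25 ± 0.11 in gXlnRC (SE). gXlnRC minus gAraRC was -4.55 ± 0.11 (limma, adjusted p = 1.09e-11), and the rule also asked that this difference pass the test. The gCXC strain stood at 5.15 ± 0.685 FPKM (SD, n = 3), near the gXlnRC level of 6.65 ± 0.858.

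Where each strain stood relative to WT differed with the size of the difference between the strains. WT levels did not enter the choice of the gene sets, but each set was chosen on the difference between the strains, so the strains had to part in the direction given. Against WT, as deposited, 4918 of the 8948 genes (55.0%) passed the test in gXlnRC and 6856 (76.6%) in gAraRC. In gXlnRC 1747 of these were higher and 3171 lower, and in gAraRC 1738 and 5118. These counts are not given after another scaling, though the medians over all genes moved with it, as described below. The values that follow are a description, and both strains are set against the same WT libraries. At the 835 genes that were 2- to 4-fold higher in gXlnRC, the median log2 difference from WT was 0.10 in gXlnRC and -1.20 in gAraRC. At the 137 genes that were 4- to 8-fold higher it was 0.46 and -1.89. At the 73 genes that were at least 8-fold higher it was 3.28 and -0.96. By these medians, smaller differences in favour of gXlnRC went with gAraRC levels below WT and gXlnRC levels close to WT. Those of at least 8-fold went with a gXlnRC median far above WT, but the 73 genes were not uniform. Their lower and upper quartiles were 0.68 and 5.68 in gXlnRC and -2.51 and 0.17 in gAraRC.

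At genes higher in gAraRC, the median log2 difference from WT in gAraRC was 1.05 for the 438 genes of 2- to 4-fold, 2.12 for the 99 genes of 4- to 8-fold and 2.27 for the 23 genes of at least 8-fold. In gXlnRC it was -0.27, -0.30 and -1.25. Over all genes tested these medians were -0.33 in gAraRC and -0.09 in gXlnRC. Median-of-ratios scaling moved the medians over all genes to -0.005 and 0.01. With it, the same 835, 137 and 73 genes stood at 0.21, 0.57 and 3.39 in gXlnRC and at -0.87, -1.56 and -0.63 in gAraRC. The same 438, 99 and 23 genes then stood at 1.36, 2.44 and 2.62 in gAraRC and at -0.17, -0.21 and -1.15 in gXlnRC. Each of these 12 medians lay on the same side of WT under both scalings.

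**Figure D4:**
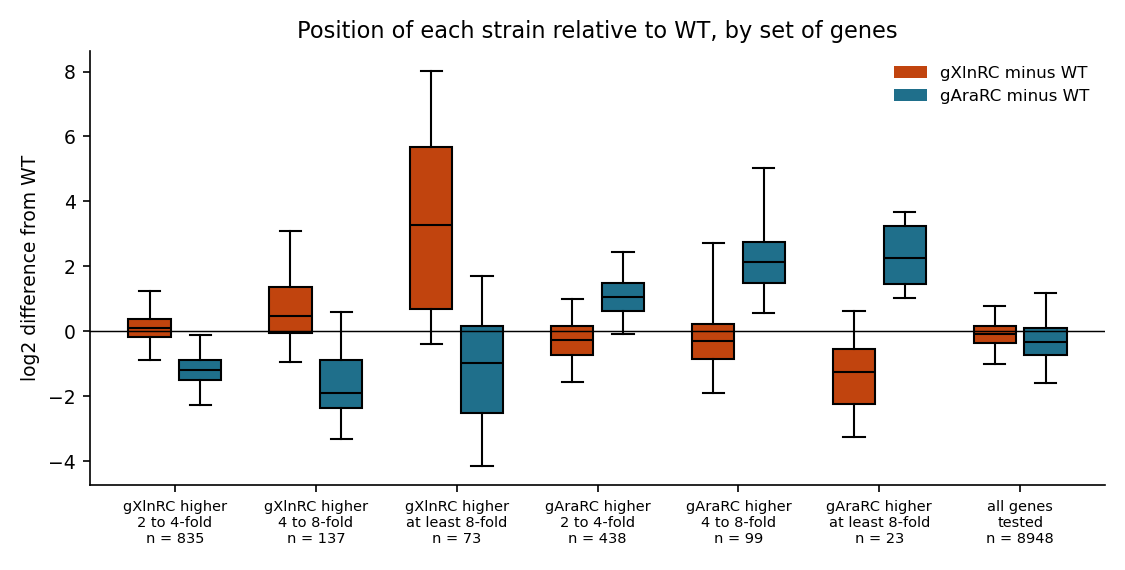
Boxes give the median and quartiles, and whiskers the 5th to 95th percentile, of the log2 difference from WT in gXlnRC (orange) and gAraRC (blue) for genes grouped by the fold difference between the strains, as deposited. At the 835 genes 2- to 4-fold higher in gXlnRC the orange box lies around 0 and the blue box around -1.20, and at the 73 genes of at least 8-fold the orange median is 3.28.

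The same sets held different parts of the mRNA in each strain. The 1045 genes at least 2-fold higher in gXlnRC took 27.0%, 27.0% and 27.9% of the reads in the gXlnRC libraries and 5.75%, 6.02% and 6.01% in the gAraRC libraries. In WT they took 16.9% ± 0.329 and in gCXC 18.2% ± 0.151 (SD, n = 3), between the levels of the strains. The 560 genes higher in gAraRC took 27.1%, 30.7% and 31.0% of the reads in the gAraRC libraries and 7.32%, 7.52% and 6.81% in the gXlnRC libraries, against 12.8% ± 0.244 in WT and 10.1% ± 0.124 in gCXC. Their share was lowest in gAraRC replicate 1. The 73 genes at least 8-fold higher in gXlnRC took 10.7% ± 0.378 of the reads in gXlnRC, 1.24% ± 0.0357 in WT and 0.308% ± 0.0347 in gAraRC. The 23 genes at least 8-fold higher in gAraRC took 8.32% ± 1.89 of the reads there, 2.97% ± 0.0603 in WT and 0.555% ± 0.0715 in gXlnRC. These sets were chosen on the same libraries, so the shares of the strains carry no test.

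Strong expression was also spread differently. The 100 most abundant genes by mean FPKM held 41.6% ± 0.314 of the summed FPKM in gXlnRC and 44.2% ± 0.538 in gAraRC (SD, n = 3), and the lists of the strains shared 64 genes. Of the 100 genes of gXlnRC, 43 differed at least 2-fold from gAraRC in either direction, against 17.9% of all genes tested, and 10 ranked below 1000th in gAraRC. Of the 100 genes of gAraRC, 44 differed at least 2-fold, and 2 ranked below 1000th in gXlnRC. Each list was chosen on its strain's level in the same libraries, which favours genes raised there, so these counts carry no test. Of the 1790 genes in the highest quintile by mean level, 261 were at least 2-fold higher in gXlnRC and 199 in gAraRC, as deposited. Among the 10 most abundant genes of each strain, 4 were shared. By mean level over the 6 libraries, genes higher in gXlnRC by 2-fold outnumbered those higher in gAraRC in each quintile as deposited, by 231 to 89 in the second and 261 to 199 in the highest. With median-of-ratios scaling they numbered 100 against 192 in the lowest quintile, 135 against 130 in the second, 124 against 88 in the third, 119 against 138 in the fourth and 202 against 260 in the highest.

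Differences of the same direction often fell on neighbouring tag numbers. Tags are numbered, and the chromosome positions behind them were not used here. Of the 1045 genes at least 2-fold higher in gXlnRC, 942 had a tested gene at the next number, and for 21.4% of these that gene was also in the set, against 11.7% of all genes tested. For the 560 genes higher in gAraRC the share was 25.6%, against 6.26% of all genes tested. Runs of at least 3 consecutive tags numbered 38 in gXlnRC and 27 in gAraRC, and the longest held 7 tags in each. No expected number of runs was worked out. In the longest run of gAraRC, 7 of 7 genes were called higher than WT in both strains (19.5% of all genes tested in gXlnRC, 19.4% in gAraRC). Their log2 differences from WT were 1.17 to 3.76 in gXlnRC and 2.93 to 5.95 in gAraRC. All runs were looked for after the data were examined, and without positions or strand, genes that overlap could share reads.

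PDE_08038 stood in the longest run of gXlnRC, of 7 tags. Together these genes took 1.20%, 1.15% and 1.26% of the reads in the gXlnRC libraries, 0.0322%, 0.0360% and 0.0370% in the gAraRC libraries and 0.0386%, 0.0355% and 0.0342% in WT. The run was thus high in gXlnRC, and the gAraRC libraries overlapped those of WT. By single gene, 6 of 7 were called higher than WT and 1 lower in gXlnRC (19.5% and 35.4% of all genes tested), and 3 were called higher and 2 lower in gAraRC (19.4% and 57.2%). The third tag had 3769, 3404 and 3891 FPKM in gXlnRC, above PDE_08038, and 122, 142 and 148 FPKM in gAraRC. In WT it had 50.6, 44.0 and 43.9 FPKM, so at this gene both strains lay above WT.

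PDE_01194 stood in a run of 5 tags that were each at least 8-fold higher in gAraRC, with log2 differences, gXlnRC minus gAraRC, from -4.92 to -3.33. Together they took 4.48%, 7.24% and 7.46% of the reads in the gAraRC libraries and 0.405%, 0.449% and 0.328% in the gXlnRC libraries. WT took 2.42%, 2.37% and 2.29%, between the strains, and gCXC 0.455%, 0.413% and 0.377%, a sum at about the gXlnRC level. Single genes differed: gCXC stood above gXlnRC at tags 1 and 4 of the run and below it at tags 2, 3 and 5. At tag 1 gCXC had 1483, 1423 and 1336 FPKM against 299, 357 and 300 in gXlnRC. At tag 3 it had 84.9, 62.3 and 54.4 FPKM against 329, 348 and 248. Against WT, 5 of 5 genes were lower in gXlnRC (35.4% of all genes tested), and in gAraRC 4 were higher (19.4%) and 1 lower (57.2%). The log2 difference of that 1 gene was -0.34 as deposited, close to the gAraRC median of -0.33 over all genes tested. The gAraRC replicate 1 was lowest at 4 of the 5 genes, for example with 7795 FPKM against 13978 and 13874 at the fifth tag. It was the highest of the gAraRC libraries at the second tag, with 2249.9 FPKM against 2171 and 2167. PDE_09192 stood in a run of 3 tags higher in gAraRC, whose mean FPKM ranged from 25.3 to 306.6 in gAraRC and from 1.71 to 36.0 in gXlnRC.

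**Figure D5:**
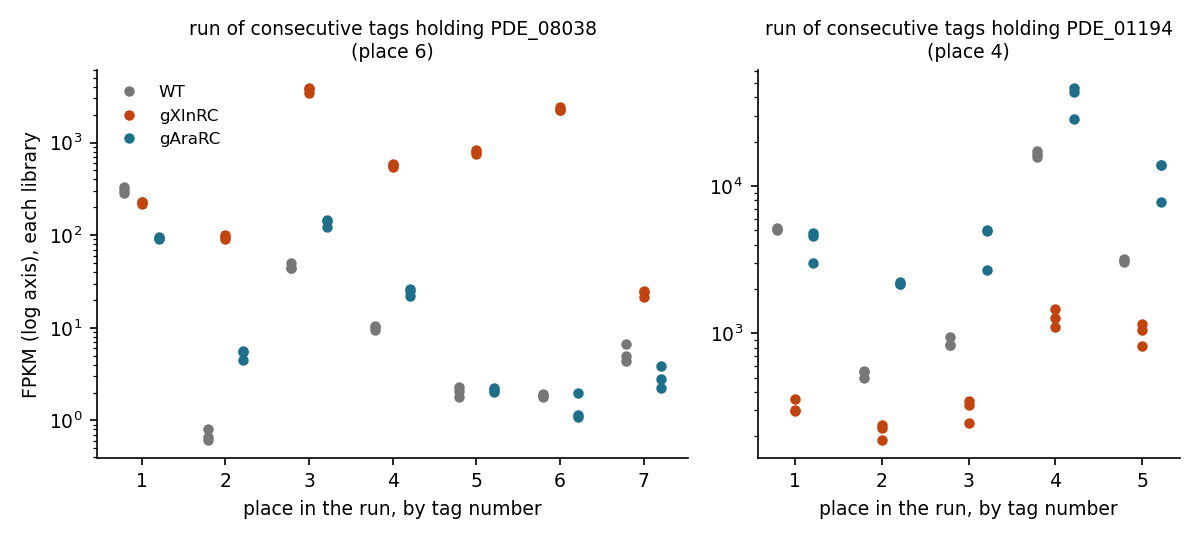
FPKM on a log axis in each library of WT, gXlnRC and gAraRC for the 7 consecutive tags that include PDE_08038 (left) and the 5 that include PDE_01194 (right), in order of tag number. On the left the gXlnRC points lie above the gAraRC points at each tag and above WT at 6 of 7. On the right the gAraRC points lie above the gXlnRC points at each of the 5 tags, and the WT points lie between them at 4.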

How the data were processed

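mRNA of 12 libraries in 4 groups was analysed from 1 table of FPKM values that the authors deposited. HISAT2 2.0.0, DESeq2, CASAVA 1.8 and featureCounts 1.5.0-p1 are listed in the submitters' processing notes, which give no roles. For genome build, annotation, strand setting and FPKM denominator nothing is given in the sources used here, and near-identical or overlapping genes could share reads.

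Group means over the 12 libraries were fitted on log2(FPKM + 1) with limma 3.58.1 in R 4.3.3 (8 residual degrees of freedom, trended prior variance). Genes entered with 1 FPKM or more in 3 or more of the 6 gXlnRC and gAraRC libraries. All tests were two-sided, and Benjamini-Hochberg adjustment ran over the 8948 genes. Because 1 was added before the logarithm, folds of low genes are understated. Ratios and levels use FPKM itself.

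FPKM values were whole multiples of what 1 read is worth. Read numbers, lengths in steps of 3 nt and totals were inferred from this. A length was found for all 8948 genes, with values within 0.1 of a whole number by construction, and at least 99.99% of each total was recovered as summed reads. Totals refer to reads counted in genes. This recovery and the limma fit were also run on simulated data, and the outcomes are not given here. The simulated reads for the fit had the same dispersion at every gene.

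Named genes had the most extreme log2 differences among called genes, 2 per direction, with libraries that did not overlap and a mean of 10 FPKM or more in either strain, and likewise 2 per direction among genes with the strains on opposite sides of WT in every library. Genes, rules and lists were chosen with earlier results of these data known. Same-numbered replicates were not treated as pairs. Python 3.11.15, numpy 2.4.6, pandas 2.3.3 and matplotlib 3.10.9 were used.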

Additional observations from a re-analysis of the deposited data

Results flagged for a closer look

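At 4 of the named genes the strains departed from WT in opposite directions, and for 3 of these the test between the strains is given (limma, Benjamini-Hochberg adjusted). The log2 difference, gXlnRC minus gAraRC, was 10.06 for PDE_04478 (adjusted p = 1.25e-18), -4.92 for PDE_01194 (1.35e-10) and -4.55 for PDE_04588 (1.09e-11). For PDE_00752 it was 7.83, given without a test because this gene passed the limit of 1 FPKM in gXlnRC and in 0 gAraRC libraries. In each case the 3 libraries of 1 strain lay above all 3 WT libraries and those of the other strain below them. The rule that named these genes asked for this order and for a difference between the strains that passed the test. Neither is therefore further evidence.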

How the results depend on the processing

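The 18 log2 differences of the 6 named genes kept their direction in all 312 values under alternatives, and 309 kept their side of the threshold. The exceptions were the comparison of PDE_08038 between gAraRC and WT, which passed with a pseudocount of 0.1 (-0.44, adjusted p = 0.0374), with a replicate block (-0.27, adjusted p = 0.0468) and without gAraRC replicate 2 (-0.43, adjusted p = 0.000700), and its adjusted p otherwise reached 0.688 (limma). The named genes were chosen for extreme values, so this says little of other genes. Of 180 gene counts, 168 stayed within 1.5 times the count reported, and all 36 shares of neighbouring tags did. Genes at least 2-fold different fell to 1029 with a pseudocount of 5 (666 higher in gXlnRC and 363 higher in gAraRC), which shrinks low genes by construction. Genes higher in gAraRC rose to 3212 with median-of-ratios scaling and 3207 with quantile normalization, and genes at least 2-fold higher in gXlnRC fell to 680 with the former. TPM scaling gave 4095 higher in gXlnRC and 2332 higher in gAraRC. The median log2 difference moved from 0.21 to 0.17 with a pseudocount of 5, to 0.17 without a filter, to 0.16 with TPM scaling, to -0.0098 with median-of-ratios scaling and to -0.0086 with quantile normalization. Between 6178 and 6401 genes were called when 1 of the 6 gXlnRC and gAraRC libraries was left out. limma voom on the recovered reads, chosen after seeing the data, gave 6564, with 1315 at least 2-fold higher in gXlnRC and 670 in gAraRC. The 23 genes at least 8-fold higher in gAraRC became 40 with voom, 39 with median-of-ratios scaling, 38 with a pseudocount of 0.1 and 15 with one of 5, and 31 without gAraRC replicate 1. The replicate block gave 6548 called genes. Deviations of same-numbered gXlnRC and gAraRC libraries correlated at 0.183, -0.00117 and 0.0446, and 1 of 3 gXlnRC libraries correlated best with its own number, so the numbers were not taken as pairs. With 10 to 35 reads per gAraRC library, depth limits the ratios of PDE_08038 and PDE_00752.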
